A study of Homo sapiens with 5 samples.

Results

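The transcriptome of uninduced IMR32 cells was described from the only array of the series taken before doxycycline, which is 1 of 5 arrays. IMR32 is an established human neuroblastoma line. The cells carried a stably integrated, inducible short hairpin RNA against MEIS1 (described as specific for MEIS1b), which had not been switched on at 0 h. They were grown in DMEM with 10% fetal calf serum, and total RNA was hybridised to an Affymetrix U133 Plus 2.0 array. The remaining 4 arrays, taken at 24, 48, 96 and 192 h of doxycycline, carry the same hairpin and enter no comparison here. An array of the parental line without the hairpin is not analysed here, and the labels do not say whether the transfected cells were a clone or a pool. There is 1 array and no replicate, so no value has an SD and no difference was tested. The number of arrays limits the precision.

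Neuroblastoma arises from neural crest cells committed to the sympathoadrenal lineage, which forms sympathetic neurons and the chromaffin cells of the adrenal medulla. A set of transcription factors that includes GATA3, HAND2 and ISL1 holds these cells in an adrenergic state and drives the genes that make noradrenaline. In aggressive tumours the MYCN gene is often present in many copies. IMR32 is a MYCN-amplified line, and extra copies of MEIS1, which lies on the same chromosome arm, have also been described in it.

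A gene was represented by its brightest probe set among those that the platform annotation assigns to that gene alone, which gave 19775 genes. Values are MAS5 signals on the linear scale, in the array's arbitrary units. A gene's percentile is the share of the 19775 genes with a signal at or below its own. Probe sets bind with unequal efficiency and signal does not scale with transcript length, so percentiles order probe signals and not numbers of transcripts. The median gene had a signal of 41.6, the 90th percentile lay at 615.3 and the 99th at 3157. As a background level the 95th percentile of 82 olfactory receptor genes was used, a signal of 21.3. These receptors are largely restricted to the olfactory epithelium, and the highest of them, OR7D2, read 52.7. Of all genes, 58.7% lay above this background and 41.3% at or under it, and 10.0% lay by construction in the top 10%. The gene lists set beside these shares were chosen with earlier results of these data known. Their counts therefore describe the lists and test nothing.

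All 5 genes taken as markers of the line lay above background, and 3 of them lay in the top 10%. MYCN, the MYC family member amplified in this line, read 4248 in its brightest probe set, at percentile 99.4. The zinc finger factor GATA3 read 2793 (percentile 98.7), and MEIS1, the homeobox gene targeted by the hairpin, read 1052 (94.6). DBH, which converts dopamine to noradrenaline, read 137.0 (percentile 67.4), and HAND2, a basic helix-loop-helix factor of sympathetic progenitors, read 54.4 (53.4). MYCN, GATA3 and MEIS1 were thus among the bright genes, while DBH and HAND2 were near the middle of the distribution, HAND2 close to the highest olfactory receptor. Without shared probe sets only MEIS1 was in the top 10%.

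The MYCN value rested on 1 of its 10 probe sets. The next brightest read 345.2 and 188.8, and the other 7 lay between 1.5 and 40.0. Taking the median of a gene's probe sets put MYCN at percentile 36.0, and leaving out probe sets whose names mark them as shared or cross-hybridising put it at 56.6. MEIS1 had 2 probe sets, at 1052 and 597.2, and DBH had 2, at 137.0 and 1.1. The 3 GATA3 probe sets read 2793, 790.3 and 301.2, all far above background.

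Of 354 genes of lineage transcription factor families (21 families collected by symbol), 171 lay above background and 22 in the top 10%. These were 48.3% and 6.21%, against 58.7% and 10.0% of all genes. The median percentile of these factors was 40.3, below that of all genes. MYCN and GATA3 were the brightest of them, followed by SOX4 (2431), TCF4 (1709), LMO4 (1540), DACH1 (1532) and SOX11 (1405). SOX4 and SOX11 are factors of immature neurons, and LMO4 is a LIM-only cofactor. Next came FOXD1 (1370), TWIST1 (1336), TCF3 (1233), HAND1 (1202) and MEIS1, and then TCF12 (1017) and FOXJ3 (854.6). TCF3, TCF4 and TCF12 encode the E-proteins with which tissue-specific basic helix-loop-helix factors such as HAND1 and TWIST1 pair. The E-protein partners were all in the top 10% in their brightest probe set, although TCF3 spanned 4.7 to 1233 over 14 probe sets.

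**Figure D1:**
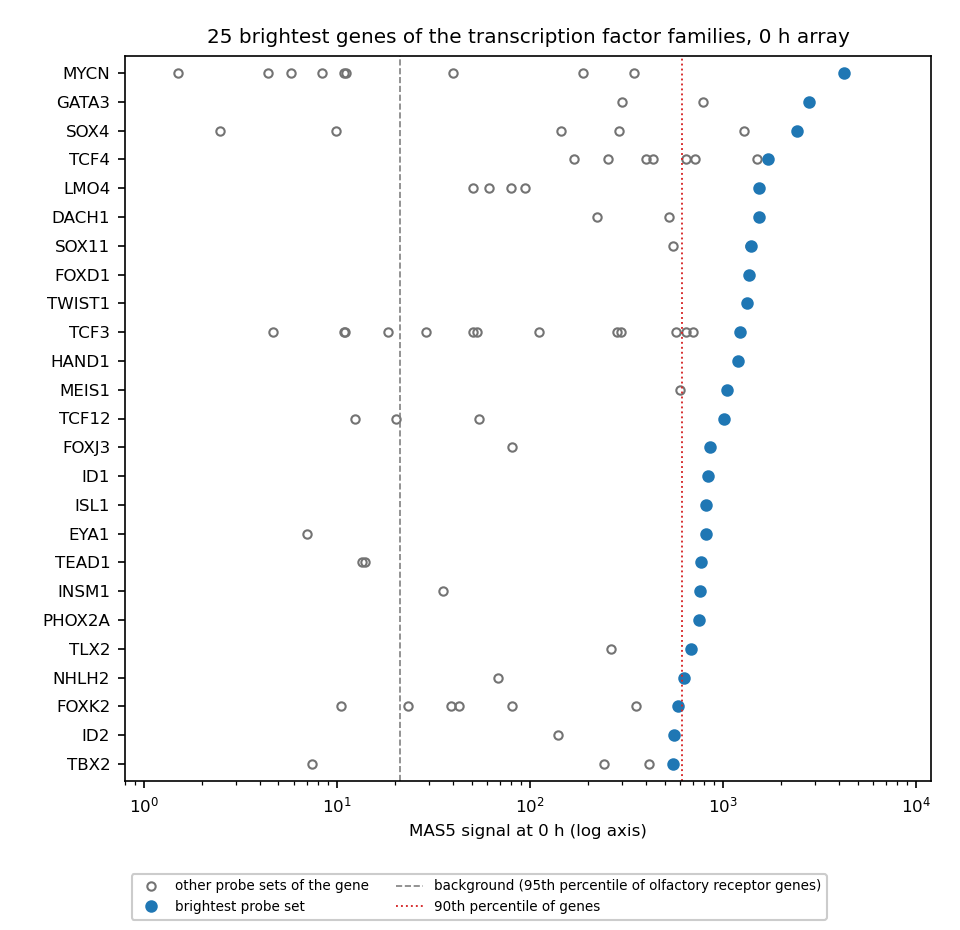
Signals at 0 h (log axis) of the 25 brightest genes of the transcription factor families. Filled points are the brightest probe set of a gene, open points its other probe sets, the dashed line is background (21.3) and the dotted line the 90th percentile of genes (615.3); MYCN leads at 4248 but has probe sets down to 1.5.

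Among the sympathoadrenal factors, 25 of 29 measured members lay above background, against 58.7% of all genes, and 13 lay in the top 10%. Their median percentile was 81.5. The homeobox gene PHOX2A, a direct activator of noradrenergic genes, read 754.0 (percentile 92) in its only probe set. ISL1, a LIM homeobox factor of sympathetic and motor neurons, read 817.5 (92.7). The zinc finger gene INSM1, needed for the sympathoadrenal lineage to proliferate, read 764.3 (92.1), with 35.5 in its other probe set.

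The homeobox gene TLX2, also a factor of crest-derived neurons, read 683.3 (percentile 91.1) and the helix-loop-helix gene NHLH2 631.4 (90.3). SATB1, a chromatin organiser, read 2079 (98). The transcriptional coactivator EYA1 read 817.0 (92.7) in one probe set and 7.0 in the other. These 4 genes were thus placed in the top 10% by their brightest probe set.

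Several factors of the same list were dim. GATA2, the relative of GATA3 that acts in the same lineage, read 44.4, 40.1 and 18.1 in its 3 probe sets (percentile 50.7 for the brightest). TFAP2B, an AP-2 factor of sympathetic neurons, read 12.4, 11.4 and 5.0. LMO1, a neuroblastoma susceptibility gene, read 7.5 (percentile 23.3), and the zinc finger gene ZNF536 read 7.4. Together with RARB (18.6), the retinoic acid receptor beta gene, LMO1, TFAP2B and ZNF536 were the members at or under background. Within the line's sympathoadrenal program, HAND1 and GATA3 were therefore measured far up the distribution, and HAND2 and GATA2 in its middle.

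Of 16 measured catecholamine genes 11 lay above background, against 58.7% of all genes. Only QDPR, which regenerates the tetrahydrobiopterin cofactor, was in the top 10% (1063, percentile 94.7). TH, the rate-limiting enzyme that makes L-DOPA, read 2.1 (percentile 9.76) in its only probe set. DDC, which turns L-DOPA into dopamine, read 150.4 (percentile 68.8), close to DBH on the scale of percentiles. PNMT, which makes adrenaline, read 9.4, so of the 4 enzymes from tyrosine to adrenaline the inner pair lay above background and the outer pair below it.

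The cofactor enzymes GCH1 (180.8), PTS (264.7) and SPR (111.2), which build tetrahydrobiopterin, all lay above background. The vesicular monoamine transporters were at or under it, SLC18A2 at 20.3 and 1.0 in its 2 probe sets and SLC18A1 at 7.6. The noradrenaline transporter SLC6A2 spanned 5.4 to 71.8 over 8 probe sets, and the dopamine transporter SLC6A3 read 57.0. MAOA, which degrades monoamines, read 182.6, 66.4 and 57.9, whereas MAOB read 2.6.

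Cholinergic genes included a bright receptor gene. CHRNA3, the alpha-3 subunit of the ganglionic nicotinic acetylcholine receptor, read 1744 (percentile 97.3), with 706.0 and 496.7 in its other probe sets. Its usual partners CHRNA5 and CHRNB4 read 199.9 (73.5) and 89.5 (60.4). CHRNA1, the muscle-type alpha subunit, read 449.6 (86.2) and 26.6, and CHRNA9 read 275.2 (78.7). CHRNB2 (35.8), CHRNG (28.9) and CHRNA6 (22.6), further nicotinic subunit genes, were nearer to background but above it.

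For the synthesis and storage of acetylcholine the values were lower. CHAT, the acetylcholine-making enzyme, read 40.8 (percentile 49.8) and the vesicular transporter SLC18A3 68.8 (56.4). The choline transporter SLC5A7 read 2.2 and the degrading enzyme ACHE 3.9, both under background. In all, 12 of 24 measured cholinergic genes lay above background (58.7% of all genes) and the list's median percentile was 40.2. With the background set at the highest olfactory receptor, 7 did, against 47.0% of all genes.

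**Figure D2:**
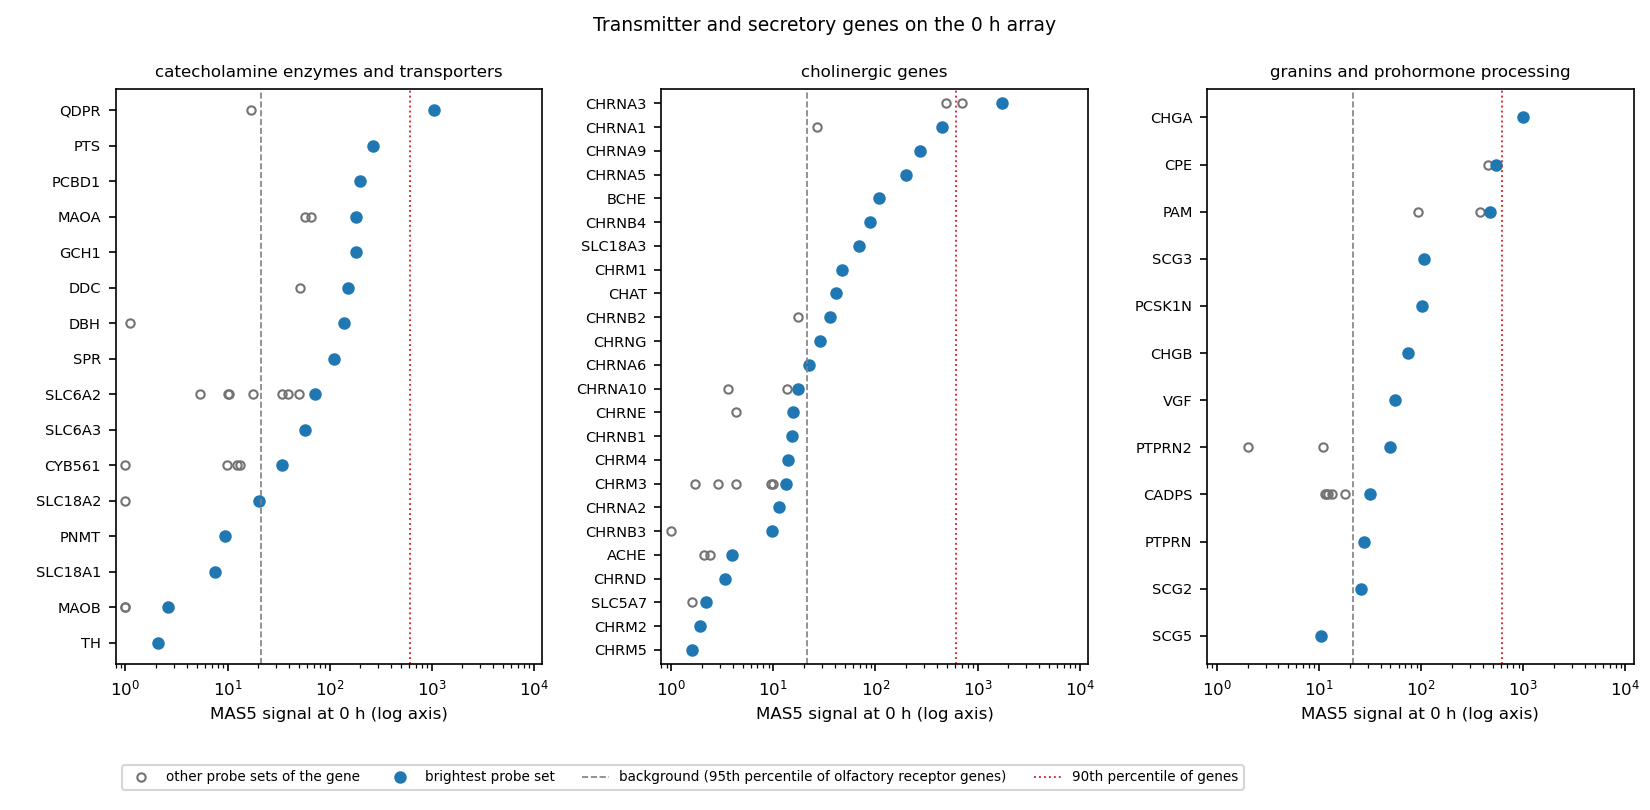
Signals at 0 h (log axis) of catecholamine genes, cholinergic genes and granin and prohormone processing genes. Filled points are the brightest probe set of each gene, open points its other probe sets, the dashed line is background (21.3) and the dotted line the 90th percentile of genes (615.3); QDPR, CHRNA3 and CHGA alone lie past the dotted line.

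Granins are the acidic matrix proteins of dense-core vesicles. CHGA, the granin used as a neuroendocrine serum marker, read 998.2 (percentile 94.3), while CHGB read 74.3 (57.5) and SCG2 25.5 (43.8). The peptide-processing enzymes CPE and PAM were at 544.4 (88.6) and 474.1 (86.9). Of 12 measured genes of this list 11 lay above background, against 58.7% of all genes, and SCG5, a convertase chaperone, read 10.5. Without shared probe sets 5 of 7 granin and processing genes lay above background (51.6% of all genes). With the background at the highest olfactory receptor 7 of 12 did (47.0% of all genes). PCSK1 and PCSK2, the prohormone convertases, were not analysed here.

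Among neuropeptides 9 of 30 lay above background, against 58.7% of all genes, and the list's median percentile was 26.3. GAL, which encodes galanin, was the exception at 1665 (percentile 97.2), with 51.9 in its other probe set. NMU (neuromedin U) read 193.9 (73.0), NPW 111.9 and NMB 103.8. The peptides most often associated with sympathetic neurons were under background or near it: NPY read 13, VIP 2.8, SST 2.1 and PENK 10.4, and ADCYAP1 read 33.5. GAL was thus the only member of the list in the top 10%. At the highest olfactory receptor 4 members lay above background, against 47.0% of all genes.

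Genes listed for neuronal structure and synapses were bright. Of 39 measured members 36 lay above background and 14 in the top 10%, against 58.7% and 10.0% of all genes. The list's median percentile was 84.2. The tubulin TUBA1A (7146), the ubiquitin hydrolase UCHL1 (3764) and the intermediate filament VIM (2957) led the list. Next came the collapsin response mediator DPYSL2 (2559), BEX1 (2533) and the neuronal tubulin TUBB3 (2016). Of these genes, TUBA1A and VIM are not particular to neurons. The neuronal RNA-binding proteins ELAVL4 (1107) and ELAVL2 (1054), the synaptic vesicle calcium sensor SYT1 (1297) and the intermediate filament INA (820.2) were also in the top 10%.

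Some members of the list were dim. The growth-cone gene GAP43 read 39, 25.3 and 6.7, STMN2 read 11.2 and 10.0, SYP, the synaptophysin gene, read 8.2, and the heavy neurofilament NEFH read 3.9. Of these 4 genes GAP43 alone lay above background, in its 2 brighter probe sets. NEFL (389.0) and NEFM (304.3), the light and medium neurofilaments, and the microtubule-associated genes MAP2 (383.9) and MAPT (114.5) lay above it.

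MYCN was the brightest of the 3 MYC family genes. MYC, its relative, read 1.0, the floor of the scale, in its only probe set, and MYCL read 83.7 (percentile 59.4). MAX, the obligate partner of all MYC proteins, read 528.0 (88.3), and the MAX-like gene MLX 820.2 (92.8). The antagonists MXI1 and MNT, which compete for these partners, read 355.6 and 211, and MGA read 1.4, 1.0, 1.0 and 1.0 in 4 probe sets. Of 12 measured members of the network 9 lay above background, against 58.7% of all genes. MYCN and MLX were in the top 10%, but no member was under the median of probe sets or without shared probe sets.

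MYCN's neighbours on the short arm of chromosome 2 were among the brightest genes of the array. DDX1, an RNA helicase gene that lies next to MYCN and is often amplified with it, read 8714 in its only probe set, at rank 4 of 19775. NBAS, on the far side of DDX1, read 4521 (percentile 99.5), with 59.3 and 44.8 in its other probe sets, and stood at percentile 63.8 by the median of these. LRATD1, the next measured protein-coding gene beyond NBAS, read 3858 (percentile 99.3). In chromosome order LRATD1, NBAS, DDX1 and MYCN formed a run of 4 protein-coding genes at percentile 99.3 or higher, broken by the non-coding MYCNUT (14.5) and MYCNOS (132.1).

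The run was bounded on both sides. On the far side of LRATD1, LINC00276 was at 1.0 and TRIB2, a pseudokinase gene, at 377.8 (percentile 83.8). On the far side of MYCN, CYRIA was at 28.4 and VSNL1 at 85.1. The brightness did not extend over a wider window. Over the 5 genes centred on DDX1 the median percentile was 99.3, at rank 5 of 19594 such windows. Over 11 genes it was 66.7, at rank 3373 of 19456. The planned centres were MYCN and MEIS1. DDX1 lies within the run described above, so its 5-gene rank restates that run and is no separate support. Centred on MYCN, the median percentile was 59.6 over 5 genes (rank 7053), 67.7 over 11 genes (rank 3054) and 59.6 over 21 genes (rank 4972). Copy number was not measured, and its part in these signals was not tested.

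On the MEIS1 side the bright genes were scattered. RAB1A, a GTPase gene of early secretory transport, read 3127 (percentile 99), and MEIS1 lay 3 measured genes further along. Between them SPRED2, an inhibitor of MAP kinase signalling, read 398.3 and LOC105369167 read 11.9. LINC01798, the next measured gene past MEIS1, read 249.3 (77.1). The 11 genes centred on MEIS1 had a median percentile of 67.9, at rank 2987 of 19456 windows. It was 77.1 over 5 genes, at rank 2250 of 19594, and 77.1 over 21 genes, at rank 359 of 19226.

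ANTXR1, an anthrax toxin receptor gene on the same arm, stood alone. It read 5910 (percentile 99.7), with 845.2, 736.6, 146.6, 13.7 and 1.4 in its other 5 probe sets. Its neighbours on one side, GKN1, GKN2 and BMP10, read 7.9, 13.4 and 6.8, and those on the other, GFPT1 and NFU1, 283.4 and 456.6. Of the 20 measured genes listed for this side of the arm, 15 lay above background and 4 in the top 10%. Of all genes 58.7% and 10.0% did. The listed genes had a median percentile of 80.1. ALK, a receptor kinase gene on the same arm that is mutated in familial neuroblastoma, read 142.9 and 100.3 (percentile 68.0).

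**Figure D3:**
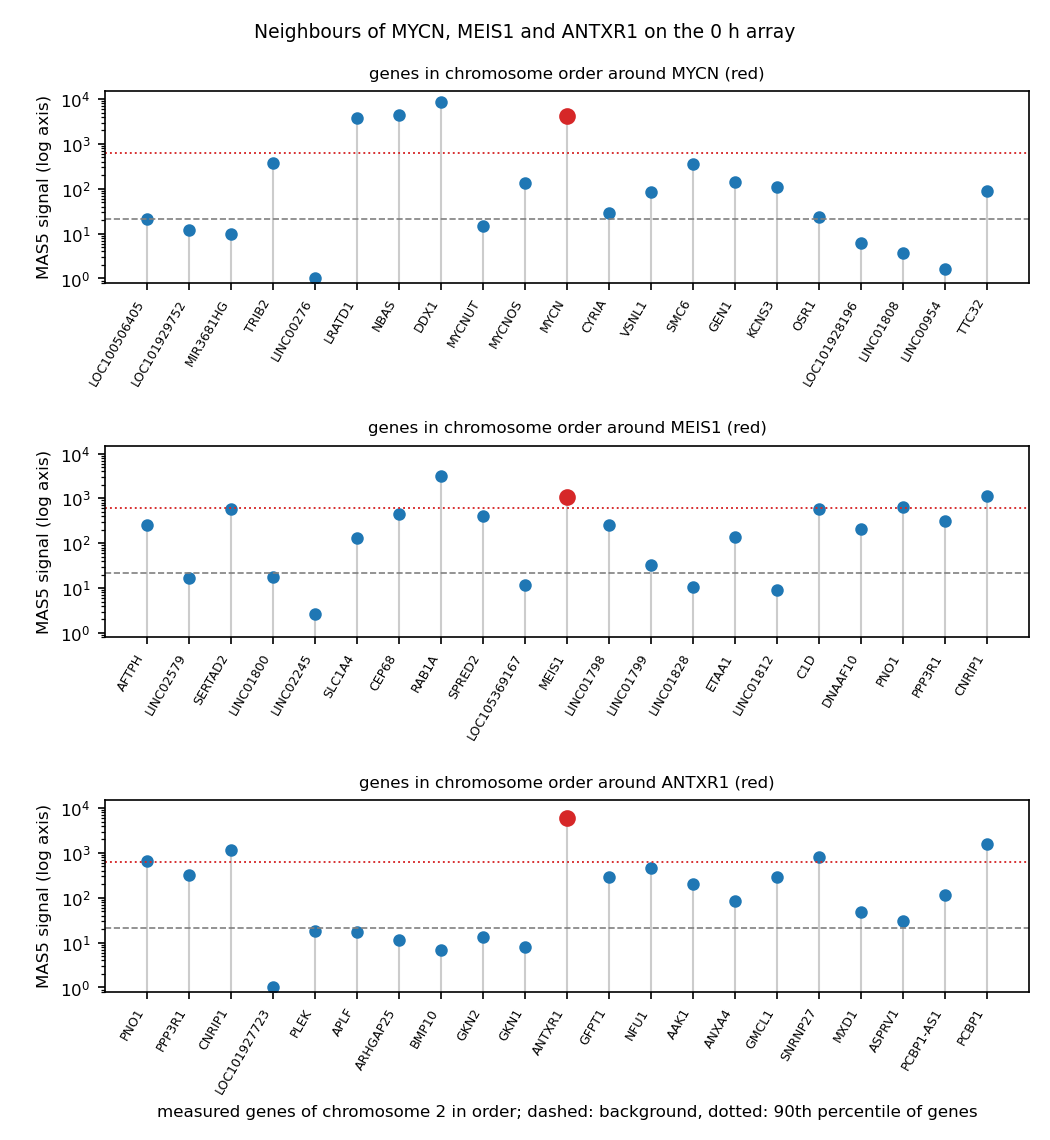
Signals at 0 h (log axis) of the measured genes of chromosome 2 in chromosome order around MYCN, MEIS1 and ANTXR1 (red points), 10 genes to each side, with background (dashed, 21.3) and the 90th percentile of genes (dotted, 615.3). LRATD1, NBAS, DDX1 and MYCN lie at 3858 or above, while ANTXR1 (5910) lies next to GKN1 (7.9).

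The promoters of DDX1 and MEIS1 are shown with that of ALB, the liver gene for albumin. The median number of CG pairs before the start differed between bright and dim genes on this array. Each sequence holds the 250 bases before the RefSeq start in build GRCh38.p14, with every CG in capitals.
DDX1 (chr2:15591618-15591867, plus strand): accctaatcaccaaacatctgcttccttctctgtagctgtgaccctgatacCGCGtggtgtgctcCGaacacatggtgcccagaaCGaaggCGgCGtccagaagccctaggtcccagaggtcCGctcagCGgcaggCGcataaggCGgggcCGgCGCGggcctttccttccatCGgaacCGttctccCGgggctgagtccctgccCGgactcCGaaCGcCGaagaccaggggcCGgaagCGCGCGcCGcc
MEIS1 (chr2:66434875-66435124, plus strand): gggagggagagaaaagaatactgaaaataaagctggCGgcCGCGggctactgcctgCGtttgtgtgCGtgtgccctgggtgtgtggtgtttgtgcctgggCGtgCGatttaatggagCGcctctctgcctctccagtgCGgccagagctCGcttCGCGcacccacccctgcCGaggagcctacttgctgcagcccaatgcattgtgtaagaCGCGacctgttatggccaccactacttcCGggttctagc
ALB (chr4:73404037-73404286, plus strand): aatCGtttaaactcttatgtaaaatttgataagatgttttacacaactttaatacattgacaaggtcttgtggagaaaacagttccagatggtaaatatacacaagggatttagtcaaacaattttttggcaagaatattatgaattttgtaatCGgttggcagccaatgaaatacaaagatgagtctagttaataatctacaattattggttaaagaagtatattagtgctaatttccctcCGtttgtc
DDX1 had 25 CG pairs in this window, MEIS1 16 and ALB 3, and their signals were 8714, 1052 and 11.7.

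Over the 11467 genes with exactly 1 promoter in the RefSeq table, the median was 22 CG pairs for genes above background and 6 for genes at or under it. By signal class the median was 4 up to percentile 10, 5 from 10 to 25, 12 from 25 to 50 and 23 from 50 to 75. It stayed at 23 from 75 to 90 and was 22 above that. The median number of CG pairs thus differed between the lower and the upper part of the distribution and did not rise within the upper part. The classes overlapped: the upper quartile was 17 from 10 to 25 and 24 from 25 to 50, and the lower quartile was 16 from 50 to 75. MEIS1, with 16 CG pairs, lay under the lower quartile of its own class, which was 17.

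**Figure D4:**
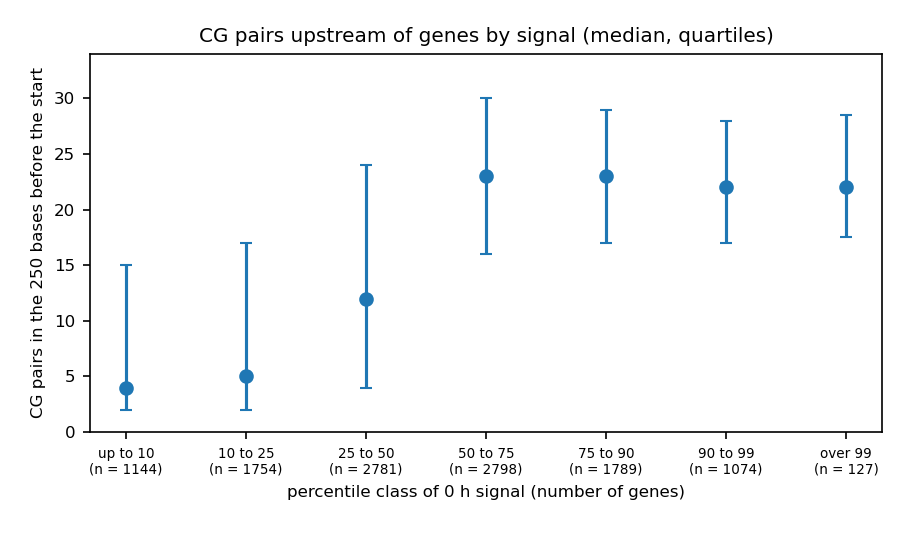
CG pairs in the 250 bases before the start, by class of 0 h signal percentile. Points are medians and bars the quartiles over genes with exactly 1 promoter; the median goes from 4 in the dimmest class to 23 in the class from 50 to 75.

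MYC-family proteins bind the E-box CACGTG, which reads the same on both strands. The motif was present in the 250 bases of 7.85% of the 11467 genes and of 6.34% of all 35116 promoters in the table. By signal class the share was 4.20% up to percentile 10, 5.82% and 5.43% in the next classes, 9.94% from 50 to 75, 10.3% from 75 to 90, 11.6% from 90 to 99 and 8.66% above 99. The motif holds a CG pair itself, and the part of the CG count in these shares was not tested. CDK4, the cyclin D-dependent kinase gene, had 3 copies of the motif and its sequence is given with them in capitals.
CDK4 (chr12:57752311-57752560, minus strand): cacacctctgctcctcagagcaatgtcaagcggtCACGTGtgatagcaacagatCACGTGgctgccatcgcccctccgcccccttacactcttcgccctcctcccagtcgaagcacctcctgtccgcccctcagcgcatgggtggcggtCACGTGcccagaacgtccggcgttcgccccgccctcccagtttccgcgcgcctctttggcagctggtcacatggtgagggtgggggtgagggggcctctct
The copies began 216, 196 and 101 bases before the start, and CDK4 read 1703 (percentile 97.3). A match describes letters and not a bound site.

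Genes with a known role in neuroblastoma were mostly bright. Of 24 measured members 21 lay above background and 10 in the top 10%, against 58.7% and 10.0% of all genes. The list's median percentile was 85.8. ODC1, the rate-limiting enzyme of polyamine synthesis and a classical MYC target, read 2730 (percentile 98.7). BIRC5 (survivin) read 1978, AURKA, the kinase that stabilises MYCN protein, 1112, and CCND1, which encodes cyclin D1, 1302. LIN28B, which blocks maturation of let-7 microRNAs, read 403.3 (84.7). TERT, the telomerase subunit, read 29.8 and 14.7, and CHD5, a candidate suppressor on chromosome arm 1p, 7.2.

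Of 37 measured proliferation genes 36 lay above background and 25 in the top 10%, against 58.7% and 10.0% of all genes. Proliferation genes were placed high as a group, with a median percentile of 94. TYMS (2921), CDK1 (2847), PCNA (2428) and MCM6 (2133) led them. The cyclin D genes were unlike each other in probe signal: CCND1 was at percentile 96.0, CCND3 at 68.9 (150.6), and CCND2 read 13.5, 12.7, 1.0 and 1.0. CCND2 was the only member of the list at or under background.

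The list of genes reported silent or low in MYCN-amplified neuroblastoma held 12 of 26 measured members above background, against 58.7% of all genes, and its median percentile was 39.4. CASP8, the initiator caspase of death receptors, read 5.3, 3.7 and 1.4, and CASP10 17.5. CD44, a hyaluronan receptor, was at or under 12.6 in all 13 probe sets. TNFRSF10A, TNFRSF10C and TNFRSF10D, which bind the death ligand TRAIL, read 10.1, 12.2 and 3.7, whereas TNFRSF10B read 767.7 (92.2) in its brightest probe set and 107.2, 95.5 and 2.5 in the others. The caspases and 3 of the 4 TRAIL receptors thus lay under background. Without shared probe sets 3 of 19 members of the list lay above it, against 51.6% of all genes in that setting. That setting also drops bright probe sets: B2M, the brightest member at 1544, then read 6.7. The lower count is therefore not by itself a sign of silent genes.

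Antigen presentation genes were uneven. B2M, the light chain of MHC class I, read 1544 and 1459 in 2 probe sets and 6.7 in the third. Among the heavy chains HLA-B was under background in all probe sets, at 11.2, 8.7 and 3.6. HLA-C read between 2.3 and 35.0, HLA-E between 1.3 and 44.4, and HLA-F and HLA-G reached 47.7 and 46.5. These genes lay above background in their brightest probe set, but under the highest olfactory receptor (52.7). The peptide transporter genes TAP1 and TAP2 were at or under 9.2 and 20.2, the immunoproteasome genes PSMB8 and PSMB9 at the floor of 1.0, and NLRC5, the activator of class I genes, at 8.2. Class I heavy chains share sequence, so their probe sets cannot be told apart with certainty.

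Of 55 measured receptor tyrosine kinases 27 lay above background and 2 in the top 10%, against 58.7% and 10.0% of all genes. The list's median percentile was 41.1. DDR2, a collagen receptor, read 887.6 (percentile 93.5) and at least 125.8 in all 4 probe sets. RYK, a WNT co-receptor, read 796.7 (92.5), and IGF1R, the receptor for insulin-like growth factors, 528.4 (88.3). PDGFRA followed at 457.3 in its brightest probe set, with 27.2, 5.0 and 1.0 in the others. FGFR1, a fibroblast growth factor receptor, read 246.1 and at least 43.3 in all 7 probe sets, and KIT read 224.9. RET, the kinase used by the GDNF family, and the neurotrophin receptor genes NTRK2 and NGFR lay under background. RET read 20.6, 19 and 16.4, NTRK2 13 and NGFR 3.4, while NTRK3, also a neurotrophin receptor gene, read 68.5 (56.3).

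Of 20 measured co-receptor and guidance receptor genes 14 lay above background, against 58.7% of all genes. GFRA2, which presents neurturin to RET, read 981.6 and 392.8 (percentile 94.1), and GFRA1, which presents GDNF, 226.9 (75.5). GFRA3 and GFRA4, the co-receptors for artemin and persephin, read 8.4 and 5.7. The guidance receptors ROBO1 (587.6), PLXNA1 (527.2), UNC5C (468.8) and UNC5B (403.0) were bright in their brightest probe sets. NRP1 and NRP2, the semaphorin co-receptors, were at 61.1 and 64.6, and DCC, the netrin receptor, at 14.7.

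Of 41 measured neuropeptide, amine and chemokine receptors 17 lay above background, against 58.7% of all genes, and the median percentile was 29.1. SSTR2, the somatostatin receptor used for imaging neuroendocrine tumours, read 708.4, 284.3 and 226.8 (percentile 91.5). CXCR4, the receptor of CXCL12, read 626.0, 337.3 and 293.1 (90.2), and ADRA2A, the inhibitory alpha-2A adrenergic receptor, 289.8 (79.5). SSTR2 and CXCR4 were well above background in every probe set. At the highest olfactory receptor 5 members of the list lay above background, against 47.0% of all genes. The other measured somatostatin receptors SSTR1, SSTR3, SSTR4 and SSTR5 read 6.2, 23.2, 1.2 and 5.8.

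Of 17 measured voltage-gated calcium channel genes 8 lay above background and none in the top 10%, against 58.7% and 10.0% of all genes. The line is used as a source of N-type channels, whose pore subunit gene CACNA1B read 107.2 (percentile 63.2) in one probe set and 4.5 in the other. Its auxiliary partners CACNB3 and CACNA2D1 read 325.7 (81.5) and 266.9 (78.3). The L-type and T-type pore subunit genes CACNA1D (23.2) and CACNA1I (28.8) were just above background, and CACNA1C (16.1) and CACNA1A (9.8) were under it.

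Surface antigens used as neuroblastoma targets differed in placement. CD24 read 1078 to 4342 over 6 probe sets (percentile 99.4) and NCAM1 636.1 in its brightest of 7 (90.4). CD276 (272.1), GPC2 (125.9) and L1CAM (103.1) were above background. The GD2 ganglioside is made by the products of ST8SIA1 and B4GALNT1, which read 18.6 and 16.8, both under background, while ST3GAL5, which makes their precursor, read 142.0. In the list of 20, 16 lay above background, against 58.7% of all genes. MCAM, a cell adhesion gene, read 49.7, and 2526 in 1 probe set assigned to several genes.

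Neuroblastoma lines can also take a mesenchymal state, and the list of genes of that state was placed much like genes in general. Of 39 measured members 22 (56.4%) lay above background and 4 (10.3%) in the top 10%. Of all genes 58.7% and 10.0% did, and the list's median percentile was 50.1. TWIST1 (1336, percentile 96.1), the matrix gene SPARC (992.4), the calcium-binding S100A6 (806.7) and TEAD1 (767.6) were in the top 10%, and COL1A1 (584.4) and SNAI2 (376.0) were above background. The factors PRRX1 (17.8), RUNX2 (15.2), FOSL1 (7.9) and WWTR1 (3.0) were under it, as were COL1A2 (9.9), COL3A1 (12.5) and AXL (7.5). TEAD1 and COL1A1 depended on the probe set: by the median of probe sets TEAD1 read 14.1, under background, and COL1A1 57.6. With shares so near those of all genes, these single values do not place the list as a whole. VIM, which is not particular to neurons, was counted in the neuronal list and not here. It read higher than any member of this list, so the placement depends on which genes were listed.

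Lists of other lineages had no member in the top 10%, and their medians lay under background. Of all genes 58.7% lay above background and 10.0% in the top 10%. None of the 12 endothelial genes or the 12 measured pluripotency and germ cell genes lay above background, with highest signals of 19.3 (CDH5) and 11.8 (MAGEA4). Of 19 liver and pancreas genes only CYP3A4 (37.8) did, and ALB read 11.7. Of 21 epithelial genes MUC1 (38.1), ESRP1 (27.5) and KRT7 (22.8) did, with EPCAM at 6.7 and CDH1 at 2.7. Of 12 adrenal cortex and gonad genes only FDX1 (197.3), a mitochondrial ferredoxin of wide expression, lay above background, and NR5A1, the master factor of steroidogenic cells, read 20.0.

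Blood cell genes had 7 of 25 above background, against 58.7% of all genes. CORO1A (100.1), an actin-binding protein gene, led this list, while the leukocyte antigen gene PTPRC read 10.4 and CD3E 10.3. Muscle genes had 7 of 26, none above NKX2-5 (72.5) and CKM (71.0), with MYOD1 at 4.2. Of 14 Schwann cell and neural crest genes 3 did, TFAP2A (72.2), GAP43 and MOXD1 (38.1); the defining factor SOX10 read 9.7 and 3.8, S100B 1.0 and FOXD3 8.9. Of 7 melanocyte genes PMEL (133.7), MITF (94.7) and OCA2 (26.8) lay above background and TYR (10.9), MLANA (8.4) and TYRP1 (1.0) were among those below it.

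Central nervous system patterning genes had 11 of 29 above background, against 58.7% of all genes. LHX2 (179.5), SLC1A3 (113.2), PAX8 (79.4) and EN1 (62.2) were the brightest of this list. OLIG2 read 1.8, EMX2 1.0 and TBR1 1.0. Sensory neuron genes had 3 of 14, with POU4F2 (66.8) the brightest and POU4F1 at 13.9. Over the 11 lists of other lineages the median percentile ran from 19.1 to 36.5, and none reached the background percentile of 41.3.

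**Figure D5:**
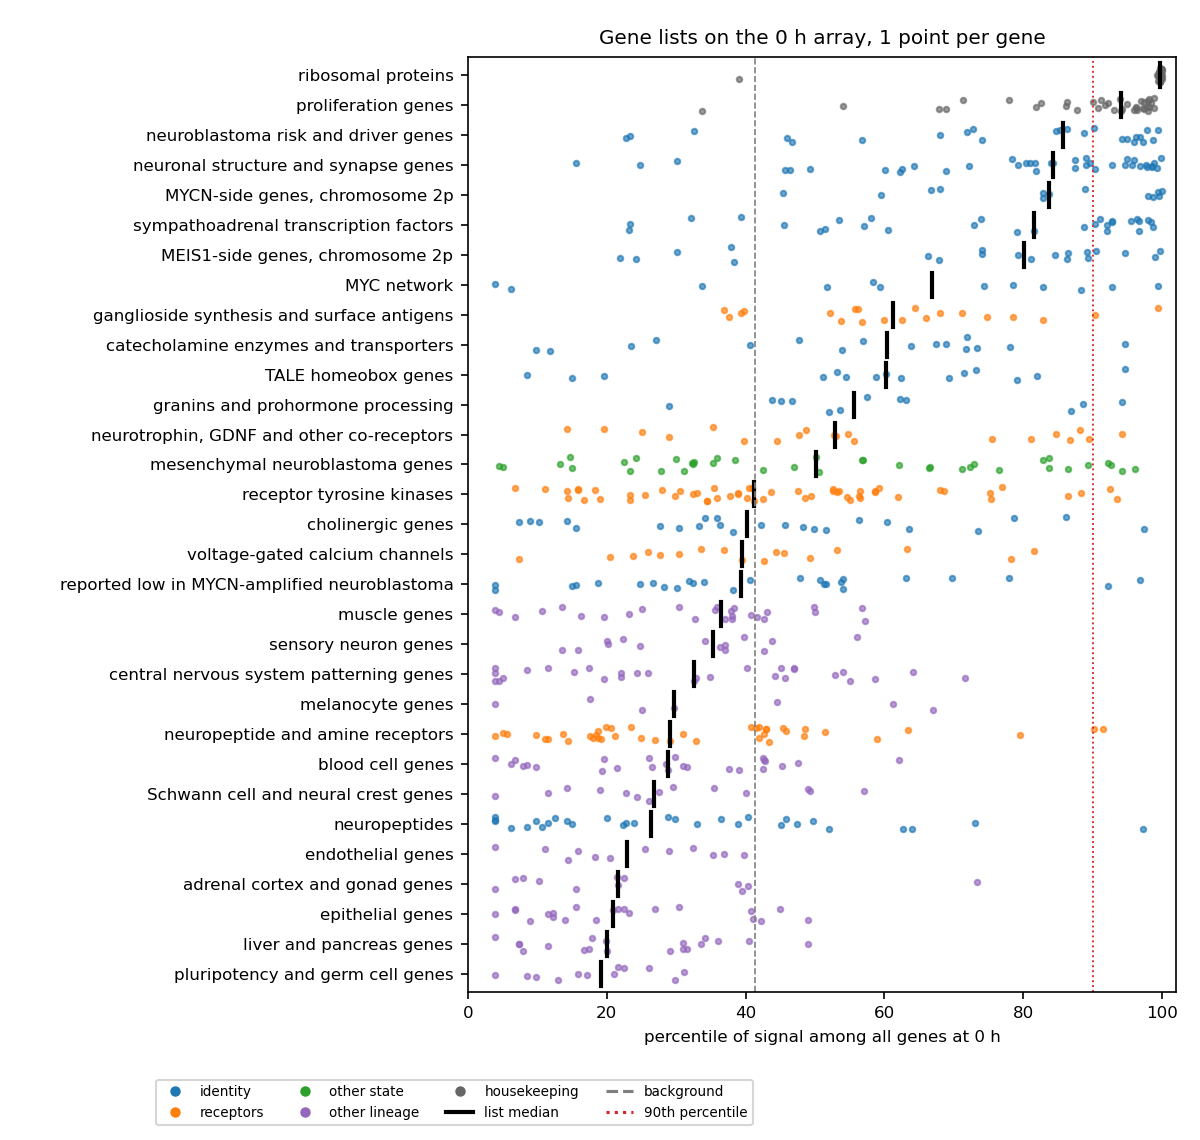
Percentile of 0 h signal of every measured gene in each list (1 point per gene; black bars are list medians; the dashed line is background at percentile 41.3 and the dotted line percentile 90). Ribosomal, proliferation, neuronal and sympathoadrenal lists lie to the right, and the lists of other lineages have medians of 36.5 or less.

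The TALE homeobox family, to which the hairpin's target belongs, had 12 of 15 measured members above background, against 58.7% of all genes. After MEIS1 came TGIF2 (336.2), PBX3 (282.9), MEIS2 (196.1) and PKNOX1 (176.7). MEIS proteins bind DNA with PBX partners, of which PBX2 and PBX4 read 80.2 and 53.3. MEIS1 was the only member in the top 10%. HOX genes, which encode the other partners of MEIS proteins, had 12 of 28 above background, against 58.7% of all genes. HOXD13 (191.1), HOXC4 (109.0) and HOXD8 (103.1) were the brightest HOX genes.

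At the top of the array stood genes that most cells use. Of the 25 brightest genes 13 encode ribosomal proteins and 4 are encoded by the mitochondrial genome, of which COX2 (8962) and COX1 (8876), subunits of cytochrome oxidase, were the brightest of all. The rest included the tubulins TUBA1B (8811) and TUBA1A, the elongation factor EEF1A1 (8104), the actin gene ACTB (7091), the prolyl isomerase gene PPIA (6959) and the thymosin gene TMSB4X (7272). TUBA1A, which also headed the neuronal list, is counted here among genes of wide use. The other members of the top 25 were DDX1, the neighbour of MYCN, at rank 4 and MLLT11 (7429, rank 14), a gene prominent in neurons. Of 28 measured ribosomal protein genes 27 were in the top 10%, and RPLP2 read 18.3 and 16. RPLP2 read 6676 in a probe set assigned to several genes, so a dim probe set does not show that a transcript was missing.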

How the data were processed

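The authors deposited 1 number per probe set, taken here as log2 of the MAS5 signal. MAS5 and GCOS are named in the submitters' processing notes, without versions. That the numbers are logged, cut off at a signal of 1 and scaled array-wide was inferred: unlogged, 100% of the 54675 came to multiples of 0.1 (tolerance 0.01), and the trimmed mean (2% off either end) was 100.02. At the cut-off lay 6.81% of probe sets. Detection calls and probe intensities were not analysed here, and MAS5 signals near background vary strongly.

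After 62 controls were dropped, 41091 probe sets had a single gene in GEO's annotation, 1801 had more and were kept for an alternative, and 11721 unnamed ones were left aside. RefSeq (GRCh38.p14) contained the gene of 41037, altered 0 symbols and supplied gene order and promoters. Each gene took its brightest probe set, on the linear scale. Named were the 25 brightest genes and transcription factors, every line marker, and the brightest and the defining dim members of each list; other genes were picked after their values were seen. Members and lists were chosen with earlier results of these data known, and 4 lists after the values were seen. Ranking and windows were tested on simulated data (Python 3.11.15, pandas 2.3.3). Alternatives used the median probe set, no shared probe sets (_s_at, _x_at, _a_at), probe sets of several genes, other background levels and other windows. Some listed genes are not reported here.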

Additional observations from a re-analysis of the deposited data

How the results depend on the processing

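No paired analysis was possible because there is 1 array and no comparison between groups. Without replicates or detection calls, signals near background have no error, and a dim probe set sets no limit on the transcript; 41.1% of genes with several probe sets had them on both sides of background. The median percentile of the 5 line markers was 94.6, 66.1 by the median of probe sets and 74.6 without shared probe sets. By the median of probe sets, 52.5% of all genes lay above background. Members above it were 4 of 25 for blood, 0 of 19 for liver and 7 of 29 for central nervous system genes. Members in the top 10% were 3 of 12 granins, 0 of 12 MYC network genes and 7 of 20 MEIS1-side genes. On the MYCN side 3 of 13 were, against 5 of 13 in the main setting. They were 1 of 26 genes reported low, 2 of 20 co-receptors, 0 of 41 peptide and amine receptors and 1 of 20 surface genes. Without shared probe sets 16788 genes remained, and 51.6% of them lay above background. Members left without a probe set dropped out, so each count is given with the members that remained. Above background were 5 of 7 granins, 3 of 19 genes reported low and 10 of 34 peptide and amine receptors. So were 4 of 20 blood, 1 of 15 epithelial, 4 of 19 muscle, 0 of 17 liver and 10 of 17 ribosomal genes. In the top 10% were 1 of 5 line markers, 2 of 23 cholinergic genes, 0 of 7 granins and 0 of 9 MYC network genes. So were 6 of 18 driver genes, 1 of 19 reported low, 3 of 20 co-receptors, 1 of 16 surface and 7 of 17 ribosomal genes. With probe sets of several genes added, 59.9% of all genes lay above background. So did 2 of 14 adrenal cortex and 1 of 15 pluripotency genes, and 1 of 41 peptide and amine receptors was in the top 10%. With background at the median gene (41.6), members above it were 5 for neuropeptides, 6 for peptide and amine receptors, 4 for calcium channels, 1 each for Schwann, blood and sensory genes, 0 each for epithelial and liver genes, 2 for muscle and 6 for central nervous system genes. At the highest olfactory receptor (52.7), 47.0% of all genes lay above background. Members above it were 7 of 24 cholinergic genes, 7 of 12 granins and 4 of 30 neuropeptides. So were 5 of 41 peptide and amine receptors and 4 of 17 calcium channels. They were 1 of 14 Schwann, 1 of 25 blood, 1 of 14 sensory, 0 of 21 epithelial and 0 of 19 liver genes. For muscle the count was 2 of 26 and for central nervous system genes 5 of 29. The cause of these shifts was not tested.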

Other observations

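Lists added after the data were seen gave further values, with no test. Of 16 measured imprinted genes 13 lay above background and 3 in the top 10%, against 58.7% and 10.0% of all genes. The list's median percentile was 66.5. GNAS, which encodes the stimulatory G protein alpha subunit, read 5087 (percentile 99.6) and NNAT, a neuronal proteolipid gene, 3782 (99.3). MEST read 636.7. DLK1, a chromaffin cell marker, read 65.6, MEG3 23.9, SNRPN 10.5 and NDN 2.6.

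Of 20 chromatin regulators 19 lay above background and 11 in the top 10%, against 58.7% and 10.0% of all genes. The list's median percentile was 90.6. UHRF1, the cofactor of maintenance DNA methylation, read 2351 and the deacetylase gene HDAC2 1718. The Polycomb methyltransferase gene EZH2 read 739.4, and HDAC9 11.1. Of 12 genes of the let-7 axis and oncofetal RNA-binding proteins 10 lay above background, against 58.7% of all genes. IGF2BP1 (807.1) and IGF2BP3 (772.1) were in the top 10%, while HMGA2 read 9.5 and LIN28A 6.4.

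Of 15 measured BCL2 family genes 11 lay above background, against 58.7% of all genes. The anti-apoptotic MCL1 read 3309 (percentile 99.1), BCL2 210.0 and BCL2L1 159.2. PMAIP1, the pro-apoptotic partner of MCL1, read 673.4, and BIK read 5.1.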
